A study of Mus musculus with 4 samples.

Results

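The genes examined here are 47 genes of mitosis and cytokinesis, taken by name from a fixed list and all found among the 22574 genes of the deposited matrix. They were measured by single-nucleus RNA sequencing (snRNA-seq) in cardiomyocyte nuclei of neonatal mouse hearts. Their level is the sum of their unique molecular identifiers (UMIs, counts of captured RNA molecules) over the nuclei of a library, as CPM, the counts per 1000000 UMIs of the same nuclei. The 6 genes of cytokinesis (Anln, Ect2, Prc1, Racgap1, Kif23 and Cit) were also summed apart from the other 41. Together the 47 genes held 17782 of 29407020 UMIs in 8585 nuclei, and single genes held between 80 UMIs (Kif2c) and 1690 UMIs (Smc4).

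The study asked what the transcription factor Nrf1, encoded by Nfe2l1, does in the injured neonatal heart. It made 4 libraries, 1 for each combination of genotype and surgery, named WT-MI, KO-MI, WT-Sham and KO-Sham by their labels. All mice carried the loxP-flanked gene (Nrf1 fl/fl), the controls included, and the KO mice also carried αMHC-Cre, whose myosin promoter is active in cardiomyocytes. Infarction (MI), by tying off the left coronary artery, or Sham surgery was done at postnatal day 3. Tissue below the plane of the ligature was taken 1 day later, and each library was made from a pool of 4 to 6 hearts. The strain label counts upward from C57BL/6 across the samples, while the protocol names C57BL/6 alone. With 1 library per group there was no replicate, so no difference was tested, no p-value is given, and every interval is an exact 95% interval that covers counting error only.

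The libraries held 2003 (WT-MI), 1848 (KO-MI), 1406 (WT-Sham) and 3328 (KO-Sham) nuclei, and values in a series of 4 follow that order below. Median depth was 3951, 3959, 3553.5 and 2572 UMIs per nucleus, and the median share of mitochondrial UMIs was 5.37%, 5.29%, 6.58% and 8.98%, so the library labelled KO-Sham was the shallowest with the highest mitochondrial share. Nfe2l1, the targeted gene, stood at 47.4, 55.3, 62.2 and 50.5 CPM. It was lower in KO-Sham than in WT-Sham (log2 ratio -0.30, interval -0.51 to -0.09) but higher in KO-MI than in WT-MI (0.22, 0.02 to 0.43), which goes against the labels of the MI pair. Where the loxP-flanked exons lie relative to the counted reads is not given in the sources used here, so Nfe2l1 does not check the knockout, and each library is named as labelled. The study reports that the mice were genotyped from their tails on the day the hearts were collected. Of all barcodes, 9 occurred in more than 1 library, and 1 of the 18 nuclei that carried them lay in the population described next. The authors assigned nuclei to the populations CM1 (CM1 and CM3 merged), CM2, CM4 and CM5. CM2 held 275 nuclei, with 57, 67, 27 and 124 in the 4 libraries. The cardiomyocyte markers Tnnt2, Myh6, Ttn, Ryr2, Actn2, Tnni3 and Myh7 were all detected in CM2 in every library, with a summed level of 22891, 23132, 23917 and 22695 CPM, below the level in CM1 in every library (log2 ratios -0.49, -0.46, -0.46 and -0.48). The summed markers of endothelial, fibroblast, myeloid and mural cells stood at 1126, 1289, 1022 and 1265 CPM in CM2 against 1394, 1371, 1642 and 1438 CPM over all nuclei. Abcc9 of the mural list alone held 144, 165, 178 and 247 CPM of this sum in CM2. Red cell genes, summed apart, stood at 18447, 1892, 1573 and 1051 CPM in CM2, and in WT-MI at 3167 CPM without a single nucleus.

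A cell that divides first copies its DNA in S phase and then, in G2 and mitosis, builds the proteins that condense, attach and separate the chromosomes. Cytokinesis is the last step, in which a contractile ring divides the cytoplasm. Cardiomyocytes of the newborn mouse leave the cell cycle within days of birth, and many pass through a last mitosis without cytokinesis and keep more than 1 nucleus. Most mitotic genes are silent in resting cells and are transcribed together late in the cycle, largely through the MuvB complex with B-Myb and FoxM1. A short element near the start site called the cell cycle genes homology region (CHR), often beside CCAAT boxes bound by NF-Y, carries much of this control.

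The promoters of the set shared these letters. RefSeq windows from 250 bases before to 50 bases after the start (GRCm38.p6) matched 40 of the 47 genes. No window was at hand for Aurkb, Ccna2, Cdca2, Esco2, Incenp, Smc4 and Tpx2. TTTGAA or TTCGAA, the letters searched for CHR on both strands, occurred in the windows of 32 of the 40 genes (80.0%), against 21.7% of all 27025 genes with a window. CCAAT, on either strand, occurred in 27 of the 40 (67.5%), against 41.1% of all genes, and both motifs together in 24 (60%), against 8.61%. The 2 motifs did not overlap in any window of a member. Of the 8 members without CHR letters, Birc5, Cit, Melk, Nuf2 and Nusap1 also lacked CCAAT, while Ccnb1, Cenpe and Diaph3 held it. A match is a description of letters and not a mapped binding site. The 100 bases before the annotated start of 5 members are shown because their genes carry the results below: the entry kinase Cdk1 and its cyclin Ccnb1, which were spread over many nuclei, Top2a, and the cytokinesis genes Prc1 and Ect2. Capitals mark CHR or CCAAT letters on either strand, and each sequence runs 5′ to 3′ along its gene.
Cdk1 (chr10:69352939-69353038, minus strand): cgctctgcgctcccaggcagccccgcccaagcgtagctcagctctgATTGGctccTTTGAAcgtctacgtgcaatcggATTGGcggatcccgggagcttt
Ccnb1 (chr13:100786571-100786670, minus strand): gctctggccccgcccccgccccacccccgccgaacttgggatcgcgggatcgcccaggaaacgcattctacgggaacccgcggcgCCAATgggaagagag
Top2a (chr11:99024190-99024289, minus strand): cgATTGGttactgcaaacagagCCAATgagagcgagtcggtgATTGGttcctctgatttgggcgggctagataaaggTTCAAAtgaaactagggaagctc
Prc1 (chr7:80294350-80294449, plus strand): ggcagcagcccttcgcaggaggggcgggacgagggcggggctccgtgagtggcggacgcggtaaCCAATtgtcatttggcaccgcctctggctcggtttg
Ect2 (chr3:27153879-27153978, minus strand): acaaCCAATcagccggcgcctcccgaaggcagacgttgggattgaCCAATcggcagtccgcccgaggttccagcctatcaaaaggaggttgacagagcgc
Prc1 and Ect2 held CHR letters in the longer RefSeq window but not in the stretch printed.

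The 47 genes were concentrated in CM2 in every library. Their summed level in CM2 was 6134 CPM (5835 to 6444) in WT-MI, 6266 CPM (5981 to 6560) in KO-MI, 5839 CPM (5401 to 6303) in WT-Sham and 7313 CPM (7052 to 7581) in KO-Sham. In CM1, the largest population, it was 320, 343, 308 and 418 CPM, so that CM2 stood above CM1 by 4.26, 4.19, 4.24 and 4.13 on the log2 scale. CM4, the population the study centred on, held 719, 794, 882 and 632 CPM and lay above CM1 by 1.17, 1.21, 1.52 and 0.60. Markers of other cell types also differed between CM4 and CM1, with log2 ratios of 1.90, 1.88, 2.45 and 1.32 for the endothelial list, 1.38, 1.29, 1.21 and 1.10 for fibroblasts, 1.19, 0.55, 0.84 and 0.65 for myeloid cells, 1.14, 0.80, 2.33 and 2.05 for red cells, and -0.08, 0.25, -0.43 and -0.23 for mural cells. The mural list rested largely on Abcc9, which in CM1 alone held 185, 185, 368 and 295 CPM. The whole list held 269, 261, 435 and 359 CPM there. The part of the markers of other cell types in the level of CM4 was not tested. CM5 held 321, 328, 301 and 497 CPM. The authors clustered the nuclei on variable genes and also transferred population labels from an earlier reference. Which step gave the deposited populations, and how many of the 47 were among the variable genes, is not given in the sources used here. Either step used the expression of these same nuclei. The distance of CM2 from the other populations is therefore a description and was not tested.

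**Figure D1:**
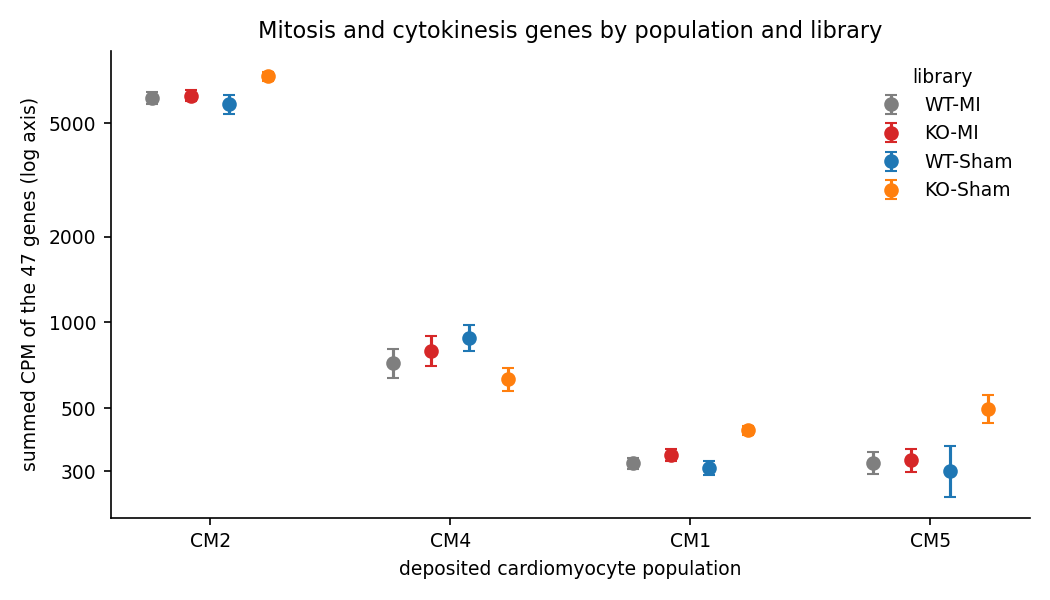
Summed level of the 47 mitosis and cytokinesis genes in CPM (vertical axis, log scale) in the populations CM2, CM4, CM1 and CM5 (horizontal axis), with 1 point per library and bars for the exact 95% Poisson interval. CM2 sits between 5839 and 7313 CPM in all 4 libraries, CM4 between 632 and 882 CPM, and CM1 between 308 and 418 CPM.

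A small number of nuclei held a large part of the set. CM2 made up 2.85%, 3.63%, 1.92% and 3.73% of the nuclei and held 37.5%, 41.5%, 27.6% and 43.6% of the UMIs of the 47 genes. A CM2 nucleus held a median of 21, 22, 23 and 19 set UMIs from a median of 15, 15, 16 and 14 of the 47 genes, with a maximum of 85, 92, 81 and 81 UMIs. In CM1 the median was 1 UMI in every library and the maximum 22, 16, 13 and 19. Nuclei with at least 10 set UMIs numbered 56, 64, 27 and 106, and 82.1%, 90.6%, 77.8% and 89.6% of them carried the CM2 label.

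The spread among CM2 nuclei was wide. The variance of the set UMIs was 16.2, 13.8, 11.6 and 13.6 times their mean in CM2, and 1.99, 1.60, 1.5 and 1.60 times in CM1. A single CM2 nucleus, in KO-MI, held 0 set UMIs. The label that the authors transferred from an earlier reference split CM2 further: 197 CM2 nuclei carried the transferred label CM5, with 8166 CPM and a median of 28 set UMIs, and 65 carried the transferred label CM1, with 2593 CPM and a median of 8. Outside CM2, 1 nucleus carried the transferred label CM5.

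**Figure D2:**
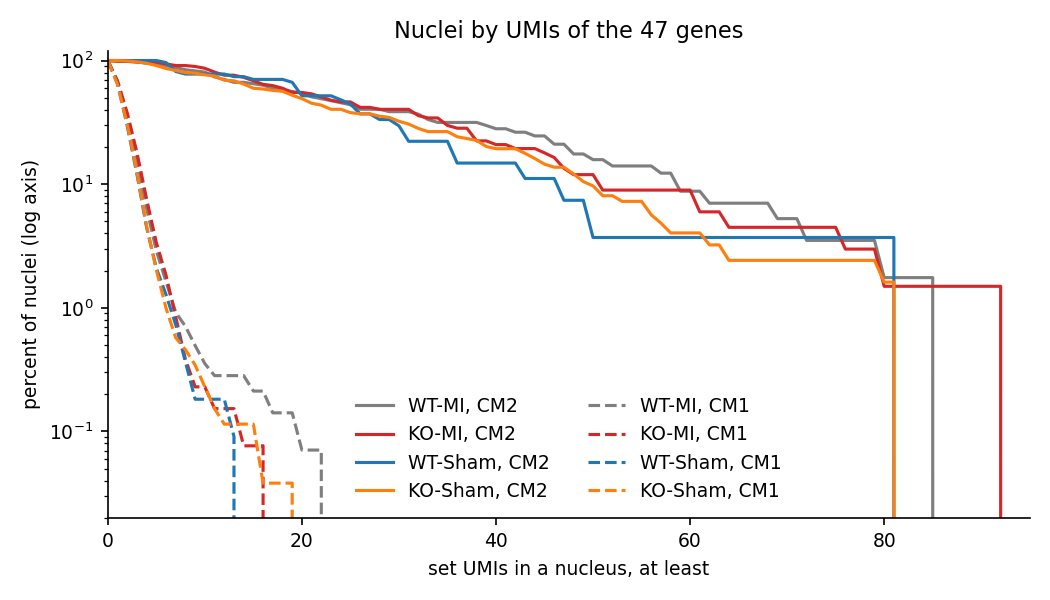
Percent of nuclei (vertical axis, log scale) with at least the number of set UMIs on the horizontal axis, for CM2 (solid lines) and CM1 (dashed lines) of each library. The CM1 lines end at 13 to 22 UMIs, while the CM2 lines run on to 81 to 92 UMIs.

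A nucleus with 3 or more set UMIs was counted as positive. Over all nuclei this held for 18.7%, 21.2%, 16.1% and 16.3% (375, 391, 226 and 541 nuclei). After each nucleus was thinned to 1000 UMIs the shares were 3.35%, 3.63%, 2.79% and 4.84%. The share of KO-Sham lay below that of WT-MI at full depth and above it after thinning, and the CPM was highest in KO-Sham, so no order of the libraries was read from the share at full depth. In CM2 the shares were 98.2%, 97.0%, 100% and 97.6% at full depth and 71.9%, 73.1%, 70.4% and 78.2% after thinning. In CM1 they were 15.4%, 18%, 12% and 12.5% at full depth, and 1.13%, 0.688%, 0.638% and 1.60% after thinning. At 1000 UMIs few CM1 nuclei passed the threshold, while most CM2 nuclei still did. In CM4 they were 18.2%, 29.7%, 29.2% and 16.5%, and 4.19%, 5.93%, 6.95% and 4.27% after thinning.

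The genes of the set did not share CM2 evenly. Over the 4 libraries, CM2 held 39.5% of the UMIs of the set. By role the share over the 4 libraries together was 20.6% for the entry kinases and cyclins (Ccna2, Ccnb1, Ccnb2, Cdk1, Plk1, Aurka and Melk), which start mitosis, and 23.0% for the passenger complex (Aurkb, Birc5 and Incenp), which corrects chromosome attachment, 34.3% for chromosome structure, 45.9% for kinetochore and checkpoint, 48.8% for the spindle, 49.5% for cytokinesis and 49.7% for the cell cortex genes Diaph3 and Iqgap3. The entry and passenger genes were lowest in every library, but the order of the others changed. The cell cortex stood at 44.2%, 44.3%, 42.8% and 60.7%, cytokinesis at 46.9%, 53.1%, 33.6% and 53.8%, the spindle at 46.1%, 54.2%, 32.3% and 52.7%, kinetochore and checkpoint at 45.6%, 52.7%, 25.6% and 48.0%, and chromosome structure at 32.7%, 33.3%, 26.9% and 39.1%. Over the 4 libraries together the highest single shares were those of Knl1 (71.2%), a scaffold of the kinetochore, Cdca2 (68.1%), which brings a phosphatase to chromatin, Esco2 (68.0%), an acetyltransferase of cohesin, and Kif15 (66.1%), a spindle motor. Their order also changed between libraries, with Knl1 at 70.6%, 77.4%, 47.5% and 75%, Cdca2 at 58.2%, 64.9%, 56.5% and 77.1%, Esco2 at 75.9%, 62.5%, 70% and 67.0%, and Kif15 at 61.5%, 77.2%, 43.9% and 71.4%. The lowest shares were those of Ccnb1 (16.6%), Cdk1 (14.5%) and Ccna2 (13.0%), the kinase and cyclins that drive entry. In all, 13 genes had over 50% of their UMIs in CM2 and 9 had under 25%. For comparison, CM2 held 25.3% of the UMIs of 45 other mitotic genes, 18.8% of 40 S-phase genes, 5.81% of 12 transcriptional regulators of G2 and mitosis, and 2.96% of Nfe2l1. Nfyc alone held 9789 of the 17567 UMIs of the 12 regulators, which differed among themselves. Foxm1 had 5, 6, 4 and 10 of its 11, 12, 6 and 11 UMIs in CM2, and E2f4 had 3, 2, 0 and 1 of its 128, 112, 61 and 91.

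The share in CM2 went with the length of the gene. Reads in introns were counted, and the 12 shortest members (6.02 to 23.0 kb in the GENCODE annotation of GRCm38) had a median share of 24.8%, against 49.1% in the 12 longest (53.4 to 486 kb). Over the 47 genes, Spearman's rho was 0.48 and Pearson's r with log10 length 0.49, and rho lay between 0.37 and 0.50 in single libraries. These are correlations across genes, which share nuclei and libraries and are no independent replicates. What length contributes to the order of the roles was not tested. Of the members, 26 overlapped another annotated gene, and 7 (Kif4, Kif18b, Ckap2l, Nusap1, Prc1, Ncapg and Ccna2) overlapped a coding or long RNA gene, whose reads may be shared.

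**Figure D3:**
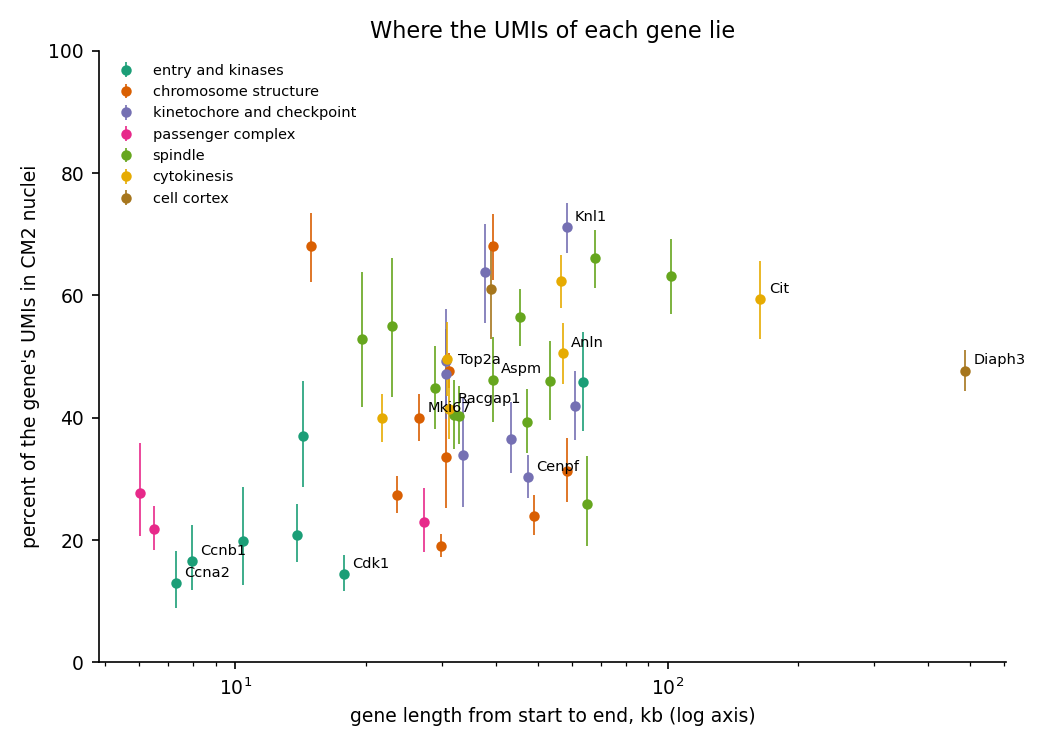
Percent of each gene's UMIs that lay in CM2 nuclei, all libraries together (vertical axis), against the length of the gene in kb (horizontal axis, log scale), with 1 point per gene coloured by role and bars for the exact 95% binomial interval. The 12 shortest genes have a median of 24.8% and the 12 longest a median of 49.1%.

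The cytokinesis genes made up a similar part of the set in the 4 libraries. Over all nuclei they stood at 70.8, 81.7, 58.6 and 104.1 CPM, which was 13.4%, 13.7%, 12.2% and 13.9% of the set UMIs. In CM2 they reached 1026, 1099, 871 and 1258 CPM, or 16.7% (14.9 to 18.7), 17.5% (15.8 to 19.4), 14.9% (12.3 to 17.9) and 17.2% (15.9 to 18.6) of the set, and outside CM2 they made up 11.3%, 11%, 11.2% and 11.4%. The intervals of the 4 libraries overlapped in CM2. At least 1 cytokinesis UMI was found in 87.7%, 89.6%, 92.6% and 87.1% of CM2 nuclei and in 12.3%, 12.4%, 10.7% and 12.4% of CM1 nuclei. After thinning these were 52.6%, 56.7%, 59.3% and 62.9% in CM2 against 3.32%, 3.52%, 3.56% and 5.23% in CM1.

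Among the 6 genes, Ect2 (chr3:27097222-27153878, minus strand), the exchange factor that activates RhoA at the division plane, had 119, 138, 49 and 188 UMIs (15.0, 18.8, 9.83 and 20.6 CPM), and 62.3% of them lay in CM2. Anln (chr9:22332012-22389188, minus strand) encodes anillin, a scaffold of the contractile ring, and had 97, 96, 47 and 152 UMIs (12.2, 13.0, 9.43 and 16.7 CPM), 50.5% of them in CM2. Prc1 (chr7:80294450-80316259, plus strand), which bundles the microtubules of the central spindle, had 138, 144, 81 and 261 UMIs (17.3, 19.6, 16.2 and 28.7 CPM), with 39.9% in CM2. In all 3 genes the library labelled WT-Sham was lowest and the one labelled KO-Sham highest in CPM. Racgap1 (chr15:99620496-99651656, minus strand) and Kif23 (chr9:61915905-61946774, minus strand) encode the subunits of centralspindlin. Racgap1 had 74, 108, 48 and 151 UMIs (9.30, 14.7, 9.63 and 16.6 CPM), and Kif23 had 70, 61, 36 and 105 UMIs (8.80, 8.29, 7.22 and 11.5 CPM). Racgap1, like Ect2, Anln and Prc1, was thus higher in both libraries labelled KO than in both labelled WT. Kif23 and Cit were not, since both were lower in KO-MI than in WT-MI. Cit (chr5:115845278-116008947, plus strand), the citron kinase of the midbody, had 65, 54, 31 and 91 UMIs (8.17, 7.34, 6.22 and 9.99 CPM), with 59.3% in CM2. Kif23 and Cit were likewise lowest in WT-Sham and highest in KO-Sham, while Racgap1 was lowest in WT-MI and highest in KO-Sham.

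The comparison of genotypes after Sham surgery gave the widest difference of the 4 pairs. Over all nuclei the set stood at 747 CPM (730 to 766) in the library labelled KO-Sham and at 478 CPM (459 to 498) in the one labelled WT-Sham, a log2 ratio of 0.64 (0.58 to 0.71). All 47 genes had a ratio above 0. The interval left out 0 in 38 of them, and the share of all genes with such an interval is not given here. The median ratio of the 47 was 0.78, against -0.09 over the 13370 genes with at least 20 UMIs in the 2 libraries together. Of those genes 38.5% had a ratio above 0. A difference of 2-fold or more was counted as a call. It was reached upward by 12 of the 47 genes and downward by 0, while 1.41% of all genes were called higher and 1.15% lower. The role ratios were 0.93 (0.74 to 1.13) for kinetochore and checkpoint, 0.83 (0.64 to 1.02) for cytokinesis, 0.81 (0.59 to 1.03) for the entry kinases, 0.69 for the spindle, 0.50 for the cell cortex, 0.45 for chromosome structure and 0.44 for the passenger complex.

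The 12 genes past 2-fold came from every role. Cdca2 had 67, 77, 23 and 131 UMIs (8.42, 10.5, 4.61 and 14.4 CPM) and a log2 ratio of KO-Sham over WT-Sham of 1.64 (0.99 to 2.35). Ect2, given above, had a ratio of 1.07 (0.61 to 1.55). Hmmr, a microtubule-binding protein of the spindle, had 64, 71, 31 and 148 UMIs (8.04, 9.65, 6.22 and 16.3 CPM) and a ratio of 1.39 (0.82 to 1.99). In each of these 3 genes the library labelled WT-Sham was the lowest and both MI libraries lay between the Sham libraries. Bub1b, which encodes the checkpoint protein BubR1, had 70, 62, 28 and 116 UMIs (8.80, 8.42, 5.62 and 12.7 CPM) and a ratio of 1.18 (0.58 to 1.83), and Cenpe, a kinetochore motor, had 70, 84, 32 and 124 UMIs (8.80, 11.4, 6.42 and 13.6 CPM) and a ratio of 1.08 (0.51 to 1.69). The kinases followed. Aurkb had 36, 32, 14 and 62 UMIs (4.52, 4.35, 2.81 and 6.81 CPM; ratio 1.28, 0.42 to 2.23), Aurka 25, 36, 13 and 53 UMIs (3.14, 4.89, 2.61 and 5.82 CPM; ratio 1.16, 0.26 to 2.16) and Melk 33, 48, 15 and 59 UMIs (4.15, 6.52, 3.01 and 6.48 CPM; ratio 1.11, 0.27 to 2.03). Their intervals were wide, as were those of 4 genes with few UMIs in WT-Sham. These were Iqgap3, a cortical scaffold, with 40, 36, 13 and 65 UMIs (5.03, 4.89, 2.61 and 7.14 CPM; ratio 1.45, 0.58 to 2.44), Ncapg, a condensin subunit, with 35, 23, 13 and 48 UMIs (4.40, 3.13, 2.61 and 5.27 CPM; ratio 1.02, 0.11 to 2.02), Kif18b with 18, 26, 4 and 37 UMIs (2.26, 3.53, 0.802 and 4.06 CPM; ratio 2.34, 0.86 to 4.29) and Kif2c with 18, 25, 6 and 31 UMIs (2.26, 3.40, 1.2 and 3.40 CPM; ratio 1.5, 0.22 to 3.05). Both are kinesins that act on microtubule ends. Bub1b, Cenpe, Aurkb, Aurka, Iqgap3, Ncapg and Kif18b likewise had WT-Sham lowest and both MI libraries between the Sham libraries. In Melk the library labelled KO-MI was highest, and in Kif2c it stood level with KO-Sham.

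Values for the members with the most UMIs in each role follow. Smc4, a condensin subunit, had 471, 447, 242 and 530 UMIs (59.2, 60.7, 48.6 and 58.2 CPM), with a ratio of 0.26 (0.04 to 0.49). Top2a, the topoisomerase that untangles sister DNA, had 290, 302, 170 and 487 UMIs (36.5, 41, 34.1 and 53.5 CPM) and a ratio of 0.65 (0.39 to 0.91). Ncapd2, another condensin subunit, had 248, 214, 133 and 258 UMIs (31.2, 29.1, 26.7 and 28.3 CPM), and its interval included 0. Diaph3, a formin of the cortex, had 238, 235, 125 and 291 UMIs (29.9, 31.9, 25.1 and 32.0 CPM). Cenpf, a kinetochore protein, had 122, 151, 92 and 308 UMIs (15.3, 20.5, 18.5 and 33.8 CPM; ratio 0.87, 0.53 to 1.23), and Knl1 109, 115, 61 and 204 UMIs (13.7, 15.6, 12.2 and 22.4 CPM; ratio 0.87, 0.45 to 1.31). In both, the library labelled KO-Sham stood above the other 3. Mki67, whose protein coats mitotic chromosomes and serves as the common marker of cycling cells, had 161, 152, 97 and 243 UMIs (20.2, 20.7, 19.5 and 26.7 CPM; ratio 0.46, 0.11 to 0.81). Ccnb2, a cyclin of Cdk1 that the study named beside Mki67, had 56, 64, 43 and 135 UMIs (7.04, 8.70, 8.63 and 14.8 CPM; ratio 0.78, 0.28 to 1.31). For both markers 3 libraries lay close together and only the library labelled KO-Sham stood above them. Of the other members with the most UMIs in their role, Cdk1 had 146, 139, 71 and 231 UMIs (18.4, 18.9, 14.2 and 25.4 CPM; ratio 0.83, 0.44 to 1.24), Ccna2 44, 55, 30 and 86 UMIs (5.53, 7.47, 6.02 and 9.44 CPM) and Birc5, the survivin of the passenger complex, 104, 132, 100 and 214 UMIs (13.1, 17.9, 20.1 and 23.5 CPM). Birc5, like Cenpf, was lowest in WT-MI. Incenp, which holds the passenger complex together, had 66, 53, 39 and 103 UMIs (8.30, 7.20, 7.82 and 11.3 CPM). The spindle genes with the most UMIs were Kif11, the motor that pushes the spindle poles apart, with 100, 103, 63 and 184 UMIs (12.6, 14.0, 12.6 and 20.2 CPM), Nusap1 with 107, 88, 66 and 175 UMIs (13.4, 12, 13.2 and 19.2 CPM) and Kif15 with 96, 101, 66 and 147 UMIs (12.1, 13.7, 13.2 and 16.1 CPM). All 3 were highest in the library labelled KO-Sham.

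**Figure D4:**
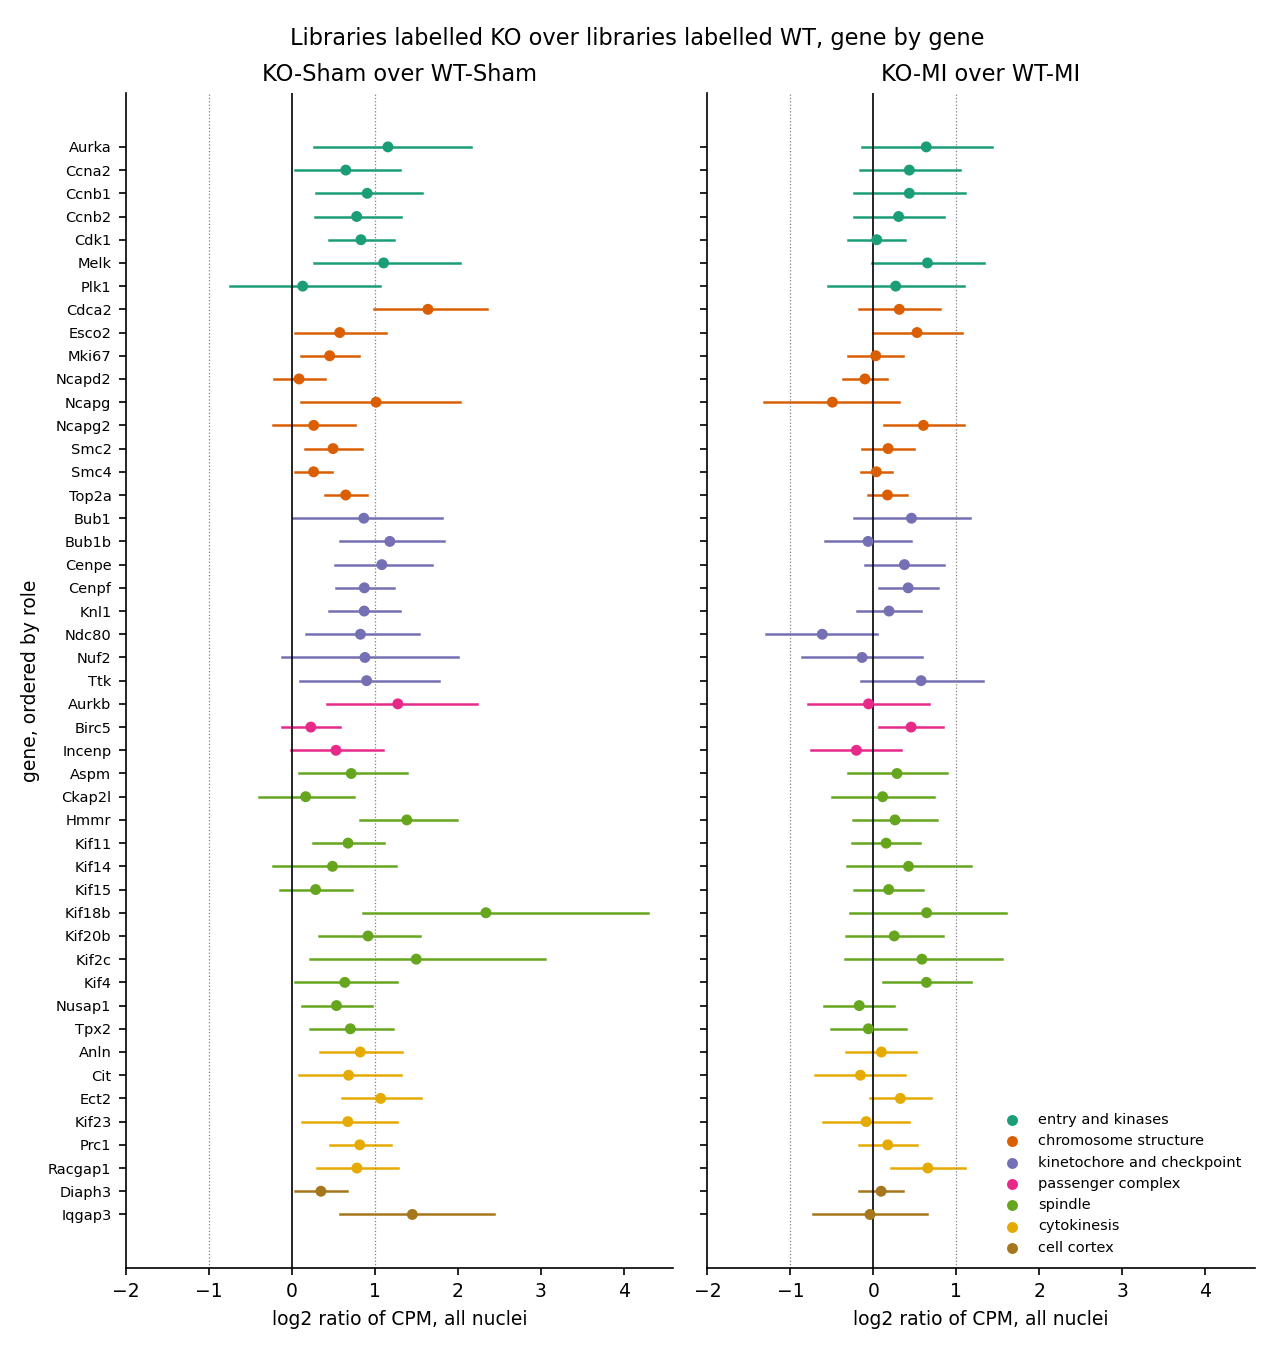
Log2 ratio of CPM over all nuclei for the 47 genes, ordered and coloured by role, for the libraries labelled KO-Sham over WT-Sham and KO-MI over WT-MI, with bars for the exact 95% interval and dotted lines at a 2-fold difference. All 47 points lie above 0 for the Sham pair and 35 of 47 for the MI pair, where 0 genes pass the dotted lines.

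The Sham difference appeared both in the number of CM2 nuclei and in the level within populations. CM2 was 3.73% of the nuclei of the library labelled KO-Sham (interval 3.11 to 4.43) and 1.92% of WT-Sham (1.27 to 2.78). At full depth the log2 ratio of the set was 0.32 (0.20 to 0.45) within CM2, 0.32 (0.23 to 0.40) outside CM2, 0.44 in CM1 and 0.72 in CM5. CM4 ran the other way, with 632 CPM in KO-Sham and 882 CPM in WT-Sham and a ratio of -0.48 (-0.68 to -0.28). The cytokinesis genes did the same, with a ratio of 0.53 (0.22 to 0.86) in CM2 and -0.95 (-1.55 to -0.34) in CM4. Counting intervals leave out the spread between nuclei, so those for CM2, here and below, are too narrow for it. In CM2 the variance of the set UMIs was 11.6 (WT-Sham) and 13.6 (KO-Sham) times the mean. The mean per CM2 nucleus was 24.3 set UMIs in WT-Sham and 23.9 in KO-Sham, at median depths of 4068 and 3128.5 UMIs. After thinning, the set in CM2 stood at 6952 CPM (6495 to 7432) in KO-Sham and 5963 CPM (5077 to 6958.5) in WT-Sham. Outside CM2 the set stood at 457 CPM (434 to 481) and 401 CPM (368 to 436). The intervals of these levels overlapped in both cases, narrowly outside CM2, and the difference within CM2 was less clear at equal depth. Overlap of the intervals of single levels does not by itself show that a difference is absent. In CM1 they did not overlap, at 437 CPM (412 to 463) and 335 CPM (302 to 372). CM4 nuclei had a median of 1715.5 UMIs and 14.6% mitochondrial UMIs in WT-Sham, against 1859 UMIs and 11.6% in KO-Sham. Markers of other cell types in CM4 were also lower in KO-Sham, at 318 against 498 CPM for the endothelial list, 1765 against 2182 CPM for fibroblasts, 64.3 against 104 CPM for myeloid cells, 307 against 324 CPM for mural cells and 7833 against 12805 CPM for red cells. The part of these differences in the result was not tested. Outside CM2, 4 of the 46 genes with 20 UMIs were called higher and 0 lower, with 1.22% of all genes called higher and 1.23% lower. Scaling by TMM or by median-ratio size factors in place of total UMIs shifted every log2 ratio of this pair by 0.10 or 0.08 over all nuclei and by 0.19 or 0.08 in CM2. The differences in depth and mitochondrial share between the Sham libraries, given above, moved with this comparison and their part in it was not tested.

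In CM2 alone 42 of the 47 genes had 20 UMIs in the Sham pair, and 11 were called higher and 0 lower in the library labelled KO-Sham, while 8.64% of all 4604 genes were called higher and 4.76% lower. Their median ratio was 0.37, and that of all genes 0.00. Cdk1 had 2 UMIs in WT-Sham (17.8 CPM) and 41 in KO-Sham (101 CPM), a ratio of 2.51. Cenpf had 7 and 99 UMIs (62.2 and 244 CPM; ratio 1.97), Bub1b 4 and 46 (35.6 and 113 CPM; 1.67), Aspm, a spindle pole protein, 4 and 45 (35.6 and 111 CPM; 1.64), and Racgap1 6 and 63 (53.3 and 155 CPM; 1.54). Bub1, a checkpoint kinase, had 0 UMIs in the 27 CM2 nuclei of WT-Sham and 28 in KO-Sham. With WT-Sham set to a floor of 3 UMIs over the group the log2 ratio was 1.37, which has no interval and is not a lower bound. The 2 MI libraries held 16 and 25 Bub1 UMIs in CM2. Smc4 alone had an interval below 0, with 44 UMIs in WT-Sham (391 CPM) and 104 in KO-Sham (257 CPM) and a ratio of -0.61. By role the CM2 ratio was 0.85 for kinetochore and checkpoint, 0.65 for the entry kinases, 0.53 for cytokinesis, 0.41 for the spindle, 0.02 for chromosome structure, 0.02 for the cell cortex and -0.07 for the passenger complex. The 27 CM2 nuclei of WT-Sham limit all of these values. Without the 5 nuclei richest in the set in each library the CM2 ratio was 0.58, and without nuclei that held 2 or more UMIs of other cell types' markers, which left 1 CM2 nucleus in WT-Sham, it was -0.51.

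Within CM2 the S-phase genes differed in the opposite direction, and over all nuclei in the same direction as the set. A list of 40 genes of DNA replication stood at 3022, 2905, 4160 and 2585 CPM in CM2, so that their ratio of KO-Sham over WT-Sham was -0.69 (-0.84 to -0.53) where that of the mitosis and cytokinesis set was 0.32. Over all nuclei the S-phase genes were higher in KO-Sham, as the set was, with a ratio of 0.24 (0.17 to 0.31) and 35 of 40 genes above 0. The same held outside CM2, with a ratio of 0.26 (0.18 to 0.34) and 34 of 40 genes above 0, and in CM1, with 474 against 372 CPM. In CM4 the S-phase ratio was -0.26 (-0.49 to -0.04). In CM2 the S-phase share of the UMIs of both lists was 33.0%, 31.7%, 41.6% and 26.1%. Nuclei with more S-phase than set UMIs made up 38.6% (22 of 57), 37.3% (25 of 67), 40.7% (11 of 27) and 25% (31 of 124) of CM2, with intervals of 22.4 to 61.2% in WT-Sham and 17.7 to 33.6% in KO-Sham, which overlapped. In the promoters of the S-phase genes, CHR letters occurred in 18.8% of 32 matched genes and CCAAT in 62.5%.

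**Figure D5:**
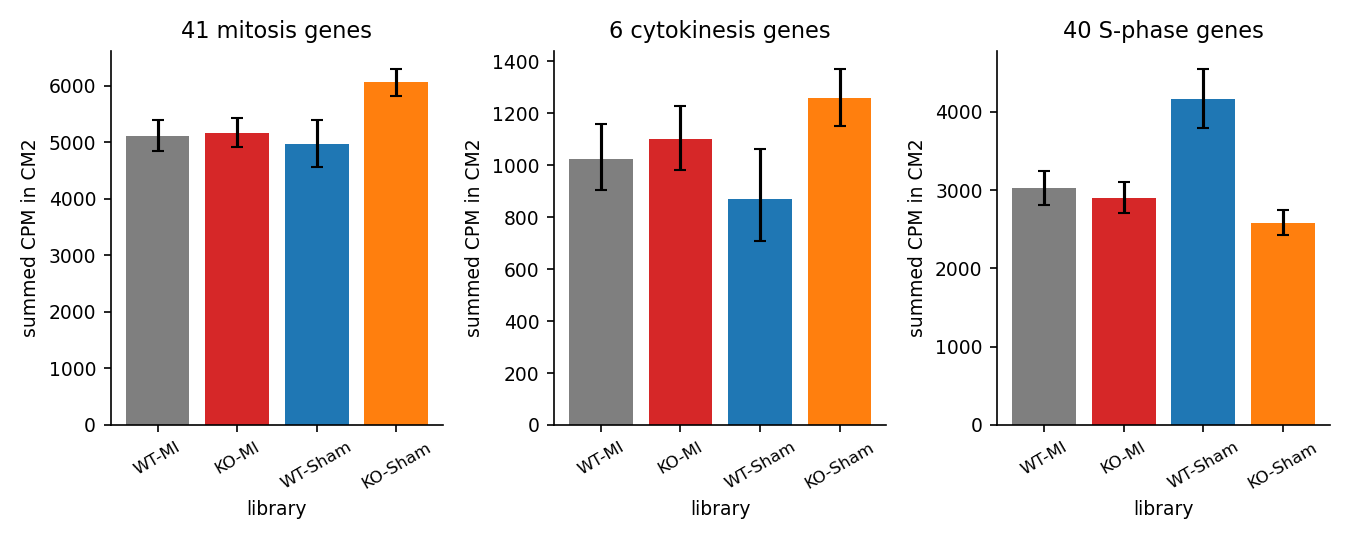
Summed level in CM2 in CPM (vertical axis, from 0) of the 41 mitosis genes, the 6 cytokinesis genes and the 40 S-phase genes in each library, with bars for the level and lines for the exact 95% Poisson interval. The library labelled WT-Sham has the highest S-phase level, 4160 CPM, and the library labelled KO-Sham the lowest, 2585 CPM, with the opposite order for the cytokinesis genes at 871 and 1258 CPM.

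After MI the genotypes lay closer. The set stood at 595 CPM (577 to 613) in the library labelled KO-MI and 530 CPM (514 to 546) in WT-MI. Their log2 ratio was 0.17 (0.11 to 0.23). After thinning to 1000 UMIs the levels were 568 and 564 CPM. The direction from the labels rests on a pair whose Nfe2l1 goes against them over all nuclei, but not in every population. In KO-MI against WT-MI, Nfe2l1 stood at 57.7 against 44.1 CPM in CM1 and 57.0 against 54.8 CPM in CM5. It stood at 31.0 against 54.4 CPM in CM2 (log2 ratio -0.81, -2.20 to 0.50). In CM4 it stood at 32.0 against 61.7 CPM (-0.95, -2.11 to 0.12), and both of these intervals included 0. Of the 47 genes 35 had a ratio above 0, with a median of 0.19 against 0.03 over all genes, and 0 were called 2-fold higher or lower, where 0.833% of all 13678 genes were called higher and 1.1% lower. In 5 genes the interval lay above 0. These were Racgap1 (0.66), Kif4, a chromosome-bound kinesin (0.64), Ncapg2, a condensin subunit (0.60), Birc5 (0.46) and Cenpf (0.42). The share of all genes with an interval above 0 is not given here. In CM2 the set ratio was 0.03 (-0.07 to 0.13), and 1 of the 41 genes with 20 UMIs was called, with 3.89% of all genes called higher and 2.67% lower. That gene was Ndc80, a kinetochore subunit that grips microtubules, with 28 UMIs in WT-MI (109 CPM) and 14 in KO-MI (48.3 CPM), a ratio of -1.17. Racgap1 (29 and 60 UMIs, 113 and 207 CPM, ratio 0.88) and Cenpf (32 and 66 UMIs, 124 and 227 CPM, ratio 0.87) had CM2 intervals above 0. In CM4 the set ratio was 0.14 (-0.10 to 0.38).

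The surgeries were compared within each genotype, with libraries that the genotype comparisons also used. In the libraries labelled WT the set ratio of MI over Sham was 0.15 (0.07 to 0.22) over all nuclei, 0.07 (-0.06 to 0.20) in CM2 and -0.30 (-0.52 to -0.07) in CM4. Over all nuclei 33 of 47 genes had a ratio above 0, a count given without the share over all genes. Of the 47, 2 were called, both higher, where 6.23% of all genes were called higher and 5.28% lower. Nuf2, a partner of Ndc80, had 38, 32, 11 and 37 UMIs (4.78, 4.35, 2.21 and 4.06 CPM) and a ratio of 1.11 (0.12 to 2.23), and Kif18b had a ratio of 1.5 whose interval included 0. The interval also lay above 0 in Iqgap3 (0.95), Cdca2 (0.87), Ect2 (0.61) and Smc4 (0.29), and below 0 in Birc5 (-0.62). In CM2, 4 of 35 genes were called higher and 2 lower, with 7.03% of all genes called higher and 5.34% lower. Cdk1 (2.27), Bub1b (1.61) and Incenp (-1.46) had intervals that left out 0.

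In the libraries labelled KO the set ratio of MI over Sham was -0.33 (-0.38 to -0.27) over all nuclei, -0.22 (-0.31 to -0.14) in CM2 and 0.33 (0.11 to 0.55) in CM4. Over all nuclei 40 of 47 genes had a ratio below 0, and the median was -0.38 against 0.04 over all genes. The interval lay below 0 in 21 of the 47, and the share of all genes with such an interval is not given here. A single gene was called, where 5.96% of all genes were called higher and 4.15% lower. Ndc80 had 53, 32, 25 and 81 UMIs (6.66, 4.35, 5.02 and 8.89 CPM) and a ratio of -1.03 (-1.67 to -0.43). In CM2, 2 of 45 genes were called lower, with 4.29% of all genes called higher and 5.45% lower, and the intervals of Ncapg (-2.46), Ccnb2 (-0.99), Nusap1 (-0.97), Mki67 (-0.74), Prc1 (-0.74), Cdca2 (-0.53) and Diaph3 (-0.37) lay below 0. Among nuclei with under 2000 detected genes the CM2 ratio of this pair was 0.07. Among nuclei with under 2 UMIs of other cell types' markers the ratio over all nuclei was 0.10. That choice kept only 125 of 1848 nuclei in KO-MI and 538 of 3328 in KO-Sham.

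The other mitotic genes, a separate list of 46 of which 45 were in the matrix, stood at 348, 413, 365 and 484 CPM over all nuclei. In the Sham pair 42 of the 44 with 20 UMIs had a ratio above 0 and 9 were called higher, where 38.5% of all genes had a ratio above 0 and 1.41% were called higher. The summed ratio was 0.41 (0.33 to 0.49). Their 5 genes with the most UMIs were Ncapd3, a condensin subunit (45.6, 50.3, 66.2 and 60.4 CPM), Hjurp, the chaperone of the centromeric histone (42.7, 39.1, 33.7 and 37.7 CPM), Cenpa, that histone (24.9, 30.4, 34.1 and 41.6 CPM), Ube2c (21.0, 27.3, 23.7 and 33.9 CPM), which attaches ubiquitin to mitotic cyclins, and Pttg1, the securin that guards sister cohesion (15.0, 18.5, 26.5 and 31.7 CPM). Ncapd3 was highest in the library labelled WT-Sham, Hjurp in WT-MI, and the other 3 in KO-Sham. The 12 transcriptional regulators of G2 and mitosis, among them Foxm1, Mybl2, subunits of MuvB and those of NF-Y, had a summed Sham ratio of -0.20.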

How the data were processed

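Single-nucleus RNA-seq of 4 libraries of mouse cardiomyocyte nuclei was used, with the groups taken from the sample titles. The authors deposited raw UMI counts of 22574 genes in 8585 nuclei. These came from Cell Ranger, whose version is not given, run against a pre-mRNA form of mm10/GRCm38 in which intron reads count. The authors had removed Scrublet doublets and nuclei outside 200 to 2500 detected genes, and kept cardiomyocyte clusters made with Seurat 3. No doublet caller was run again. Labels and methods name different versions of the 10x Genomics kit. The authors also deposited the percent of mitochondrial UMIs per nucleus, the population, and another label carried over from older data with its score, a fraction. Another 9 columns of the metadata were not used.

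UMI counts were summed per library and population and given as CPM with exact Poisson intervals, shares with Clopper-Pearson intervals, and log2 ratios of CPM with conditional binomial intervals, all at 95% and all for counting error only. No pseudocount was added. A sum of 0 was set to a floor of 3 UMIs. A gene entered counts of calls with at least 20 UMIs over both sums, and a call was a difference of 2-fold or more, with no test. Nuclei were thinned to 1000 UMIs without replacement (seed 11), leaving out shallower ones (1, 0, 6 and 0 nuclei). Scripts were tested on simulated data.

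The members and lists were chosen with earlier results of these data known. Values in every library are given for the cytokinesis genes, Mki67, Ccnb2, Nfe2l1, the members with the most UMIs in each role, those past 2-fold with an interval that leaves out no difference, and the top 5 genes of the list of other mitotic genes. Members with values from CM2 alone were named after those values were seen. Python 3.11.15, numpy 2.4.6, scipy 1.17.1 and pandas 2.3.3 were used, with TMM factors from edgeR 4.0.16 and size factors from DESeq2 1.42.0 in R 4.3.3 as alternative scalings. Gene positions came from GENCODE on GRCm38 and promoter windows from RefSeq on GRCm38.p6.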

Additional observations from a re-analysis of the deposited data

Results flagged for a closer look

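The ratio of the MI library over the Sham library had opposite signs in the pair labelled WT and the pair labelled KO, and the difference was not tested, since each group had 1 library. Over all nuclei the log2 ratio of MI over Sham was 0.15 (0.07 to 0.22) in the libraries labelled WT and -0.33 (-0.38 to -0.27) in those labelled KO. Without nuclei that held 2 or more marker UMIs of other cell types the signs were the same, with 0.51 for WT and 0.10 for KO. That choice kept only 123 of 2003 (WT-MI), 125 of 1848 (KO-MI), 82 of 1406 (WT-Sham) and 538 of 3328 (KO-Sham) nuclei. It cuts at a UMI count, so it also depends on depth. With under 2000 detected genes the WT ratio was 0.029. The cytokinesis genes gave 0.27 (0.07 to 0.48) and -0.35 (-0.50 to -0.20). In CM4 the set went the other way in both, with -0.30 (-0.52 to -0.07) for WT and 0.33 (0.11 to 0.55) for KO. Depth and mitochondrial share differed most between the library labelled KO-Sham and the other 3, and their part in these values was not tested.

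Genes of red blood cells stood out in CM2 of the library labelled WT-MI, with 18447 CPM (17927 to 18980). A single nucleus held 3964 of these UMIs, which were 41.3% of its 9599 UMIs, the most of any nucleus. The same nucleus had 2477 detected genes, 85 set UMIs from 34 of the 47 genes, 14 of them from cytokinesis genes, and 1 S-phase UMI. It was also the CM2 nucleus with the most set UMIs in its library. Without it the red cell genes stood at 3167 CPM and the set at 6028 CPM in CM2 of WT-MI.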

How the results depend on the processing

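No paired analysis was possible because each group had 1 library, and for the same reason no library could be left out. Of 408 values recomputed under another choice, 290 stayed within their counting interval or within 1.5 times the count, 109 moved beyond it and 9 changed sign from a value whose interval had left out 0. Sign changes from a ratio whose interval held 0 are among the other values. Where values moved, the cause was not tested. Values in a series of 4 follow the order WT-MI, KO-MI, WT-Sham and KO-Sham. The set level over all nuclei became 564, 568, 509 and 699 CPM after thinning, 473, 533, 425 and 667 CPM without Mki67 and Top2a, 486, 546, 430 and 709 CPM without the 5 nuclei richest in the set in each library, and 447, 509, 438 and 652 CPM with under 2000 detected genes. It was 606, 679, 426 and 634 CPM without nuclei that held 2 or more marker UMIs of other cell types, a choice that kept 123, 125, 82 and 538 nuclei and 4, 6, 1 and 18 CM2 nuclei. The share of positive nuclei was 36.1%, 40.2%, 32.6% and 33.1% at 2 UMIs, 5.74%, 7.31%, 4.98% and 5.83% at 5 UMIs, 3.35%, 3.63%, 2.79% and 4.84% after thinning, 16.1%, 18.2%, 14.0% and 14.4% without Mki67 and Top2a, 15.0%, 16.1%, 13.2% and 14.7% with under 2000 genes, and 14.6%, 16.8%, 8.54% and 11% with few marker UMIs of other cell types.

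The log2 ratio of KO-Sham over WT-Sham over all nuclei was 0.46 after thinning, 0.72 without the 5 richest nuclei, 0.57 with under 2000 genes, 0.57 with few other-type UMIs, 0.75 under TMM and 0.73 under size factors. In CM2 it was 0.58 without the 5 richest nuclei, 0.52 under TMM and -0.51 with few other-type UMIs. After thinning, the CM2 levels of this pair were 6952 CPM in KO-Sham and 5963 CPM in WT-Sham, with overlapping intervals. KO-MI over WT-MI was 0.0082 after thinning over all nuclei and -0.057 outside CM2, and in CM2 it was -0.21 after thinning, 0.24 with under 2000 genes, -0.21 with few other-type UMIs and -0.14 by the transferred label. WT-MI over WT-Sham was 0.029 with under 2000 genes, 0.51 with few other-type UMIs and 0.22 under TMM or size factors, and in CM2 it was 0.22 after thinning, 0.23 without the 5 richest nuclei, 0.39 by the transferred label and 0.21 under TMM. KO-MI over KO-Sham was 0.10 over all nuclei and 0.37 in CM2 with few other-type UMIs, and in CM2 it was -0.31 without the 5 richest nuclei, 0.071 with under 2000 genes and -0.33 under TMM. With few other-type UMIs 4 single genes changed sign: Ncapg (-3.44), Cdca2 (-0.33) and Cenpe (-0.64) for KO-Sham over WT-Sham, and Ndc80 (0.27) for KO-MI over KO-Sham.

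The cytokinesis share over all nuclei was 15.0%, 15.3%, 13.8% and 15.6% without Mki67 and Top2a and 15.2%, 18.5%, 10.0% and 12.4% with few other-type UMIs. In CM2 it was 19.2% (WT-MI), 19.7% (KO-MI) and 19.6% (KO-Sham) without Mki67 and Top2a, 20.2% (WT-MI) and 21.0% (KO-MI) with under 2000 genes, and 19.4%, 21.9%, 12% and 14.4% with few other-type UMIs. Over all nuclei 0 genes were 2-fold lower in KO-MI than KO-Sham without the 5 richest nuclei. In CM2 the count for KO-MI over WT-MI was 2 higher and 2 lower at a minimum of 10 or of 4 UMIs, 0 lower without the 5 richest nuclei and 2 higher without nuclei over 5% red cell UMIs, an alternative chosen after seeing the data. For WT-MI over WT-Sham it was 7 higher at 10 UMIs, 8 higher at 4 UMIs and 1 lower under TMM, under size factors, without the 5 richest nuclei and without the red cell nuclei, and for KO-MI over KO-Sham 5 lower under TMM and 4 lower without the 5 richest nuclei. The shares over all genes under these other choices are not given here. No result about the members was therefore read from these counts. Depth limits the single genes most, since 2 to 12 of the 47 had under 20 UMIs in a CM2 comparison.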

Other observations

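The transferred label CM5 marked most CM2 nuclei, although the deposited population CM5 is a different group with 301 to 497 CPM of the set. The transferred name CM5 and the final name CM5 thus refer to different nuclei. Of the nuclei with the transferred label CM5, 197 lay in the deposited population CM2 and 1 outside it.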
